A study of Mus musculus with 26 samples.

Results

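The C-type lectin receptor genes Clec12a, Clec4a1, Clec4a2, Clec4a3, Clec5a and Clec4n were followed by their gene symbols through 18 libraries of sorted mouse microglia. They are 6 of the 31053 genes listed for these libraries, and each was taken whatever its level. Somatosensory (S1) cortex, freed of meninges, came from wild-type C57Bl/6N offspring whose mothers received saline or poly(I:C), a double-stranded RNA that causes maternal immune activation (MIA), at E12.5. Microglia were isolated by flow cytometry as Cd11b+, Cx3cr1+ and Cd45 low cells and profiled one cell at a time by droplet capture of the 3′ ends of mRNAs, counted as unique molecular identifiers (UMIs). The groups were E13.5 saline and E13.5 MIA with 3 libraries each, E15.5 saline and E15.5 MIA with 3 libraries each, P14 saline with 4 libraries and P14 MIA with 2 libraries. The labels round the embryonic ages to E13 and E15. Embryos were pooled in each embryonic library, and the labels give mixed sex except for 2 P14 saline libraries of replicate 3, one of females and one of males. Nothing in the labels ties a library to a mother, so the p-values measure the spread between libraries.

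C-type lectin receptors sit in the membrane of phagocytes with a carbohydrate-recognition fold outside the cell. Their signals split into opposite kinds: receptors with an immunoreceptor tyrosine-based inhibitory motif (ITIM) in their own tail recruit the phosphatases encoded by Ptpn6, Ptpn11 and Inpp5d, whereas receptors without one often pair with adaptors that carry an activating motif (ITAM), such as the products of Tyrobp and Fcer1g. Clec12a (MICL) recognises uric acid crystals and dead cells and is inhibitory. Clec4a2 (DCIR) is the inhibitory receptor of dendritic cells, and Clec4a1 and Clec4a3 are its close relatives. Clec5a (MDL-1) pairs with the Tyrobp and Hcst adaptors, and Clec4n (Dectin-2) recognises fungal mannans through Fcer1g.

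All 6 genes lie on mouse chromosome 6 (GRCm38). Clec4a1 (122921848 to 122934619), Clec4a3 (122952515 to 122969875), Clec4a2 (123106428 to 123143999) and Clec4n (123229843 to 123247021) are neighbours on the plus strand in the Dectin-2 cluster. Clec12a (129342691 to 129365303, plus strand) belongs to the Dectin-1 cluster, and Clec5a (40574894 to 40585821, minus strand) stands apart from both. The 18 coding bases around the ITIM tyrosine codon are shown for the 2 members in which a match to the ITIM codon pattern lay at the start of the coding sequence, at codon 7 in both, with the tyrosine codon in capitals.
Clec12a: attgttTATgcaaatctc
Clec4a2: atcactTATgcagaagtg
In the first 60 codons the pattern was also met at codon 53 of Clec4a3 and at codon 41 of Clec4n, and it was not met in Clec4a1 or Clec5a. A match describes the letters and says nothing of its use. Clec4a2 and Clec4a3 were identical at 81.2% of their aligned coding bases, the highest of the 15 pairs. This measure leaves out gaps, and the other pairs lay between 72.0% and 78.6%, the latter for Clec12a with Clec5a. As a percentage of the longer coding sequence, Clec4a1 with Clec4a3 was higher (72.8%) than Clec4a2 with Clec4a3 (71.6%). Reads were counted near the 3′ end, where no stretch of 50 bases in the last 500 bases of any member occurred in another.

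The 100 bases upstream of the RefSeq starts (GRCm38.p6) are shown for Clec12a, Clec4a2 and Clec4a3, 3 of the 4 members with a called change between stages over all cells; the other, Clec4n, had no entry. Capitals mark GAGGAA and GGAAGT, both forms of the letters that the myeloid factor PU.1 and its relatives bind, searched on both strands so that TTCCTC is the reverse complement of GAGGAA. The 2 motifs can overlap by 4 bases.
Clec12a, chr6:129350144-129350243, plus strand: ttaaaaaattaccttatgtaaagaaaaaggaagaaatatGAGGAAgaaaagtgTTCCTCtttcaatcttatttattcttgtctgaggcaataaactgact
Clec4a2, chr6:123122590-123122689, plus strand: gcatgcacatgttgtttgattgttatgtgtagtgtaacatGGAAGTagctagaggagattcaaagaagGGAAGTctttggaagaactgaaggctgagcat
Clec4a3, the second of 2 starts, chr6:122952544-122952643, plus strand: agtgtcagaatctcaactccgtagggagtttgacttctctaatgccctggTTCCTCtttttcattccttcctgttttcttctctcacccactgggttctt
The 100 bases before the first Clec4a3 start (chr6:122952415-122952514) and those before the Clec4a1 start, not shown, held neither motif, and those before the Clec5a start held GAGGAA 2 times. Within the last 100 bases GAGGAA was found in 9.82% and GGAAGT in 10.0% of all 32851 RefSeq windows, on either strand. A match describes letters and not a bound site.

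Before the results, the libraries themselves: 22 of 153 pairs of libraries shared far more cell barcodes than their sizes allow by chance. These pairs passed a cut-off on both the number shared and its ratio to the number by chance. Smaller overlaps, such as 18 barcodes of E13.5 saline replicate 3 and P14 MIA replicate 2, are not among them. For example, 258 of the 375 cells of E13.5 MIA replicate 2 (68.8%) had a barcode also found in P14 saline replicate 3 female. A set of 6 libraries was linked in this way, namely E13.5 saline replicate 2, E13.5 MIA replicate 2, both E15.5 replicate 3 libraries and both P14 saline replicate 3 libraries. Another set of 4 joined E13.5 saline replicate 1, E13.5 MIA replicate 1, P14 saline replicate 1 and P14 MIA replicate 1. E15.5 saline and MIA replicates 1 formed the last pair past the cut-off. Each shared barcode was kept only in the library where it had the most UMIs, which removed 1828 of 67847 cells, between 0.357% and 16.2% of a library. After removal of doublets and of 4937 cells in clusters of other cell types, 58622 cells were summed, 266 to 5459 cells and 5887269 to 94735443 UMIs per library. The E13.5 MIA replicates 1 and 2 were small, with 280 and 375 cells past the filter. All 12 microglial markers were present at every stage. In counts per 1000000 UMIs (CPM) they summed to 12120 to 13289 at E13.5, 17859 to 26032 at E15.5 and 43347 to 47026 at P14. Neutrophil markers summed to at most 0.341 CPM and lymphocyte markers to at most 0.414 CPM in any library.

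Clec4a2 and Clec4a3 rose at each step of development, Clec12a fell to almost nothing by P14, Clec4n fell to P14 in saline microglia, and Clec5a showed no called change. Clec4a1 showed none over all cells, but rose and then fell once the border macrophage-like and Ms4a7-high cells of the clustering were left out. These stage differences were read from a single edgeR quasi-likelihood model over the 18 libraries, with Benjamini-Hochberg adjustment over all 14125 genes tested and a threshold of 0.05. Clec12a and Clec4n passed the filter on low counts of this model through the embryonic libraries, where they were higher, and did not pass within P14. Calls of their falls to P14 are therefore no support beyond the counts themselves. The labels give no day of preparation, so a batch that followed the stage cannot be told apart from age.

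**Figure D1:**
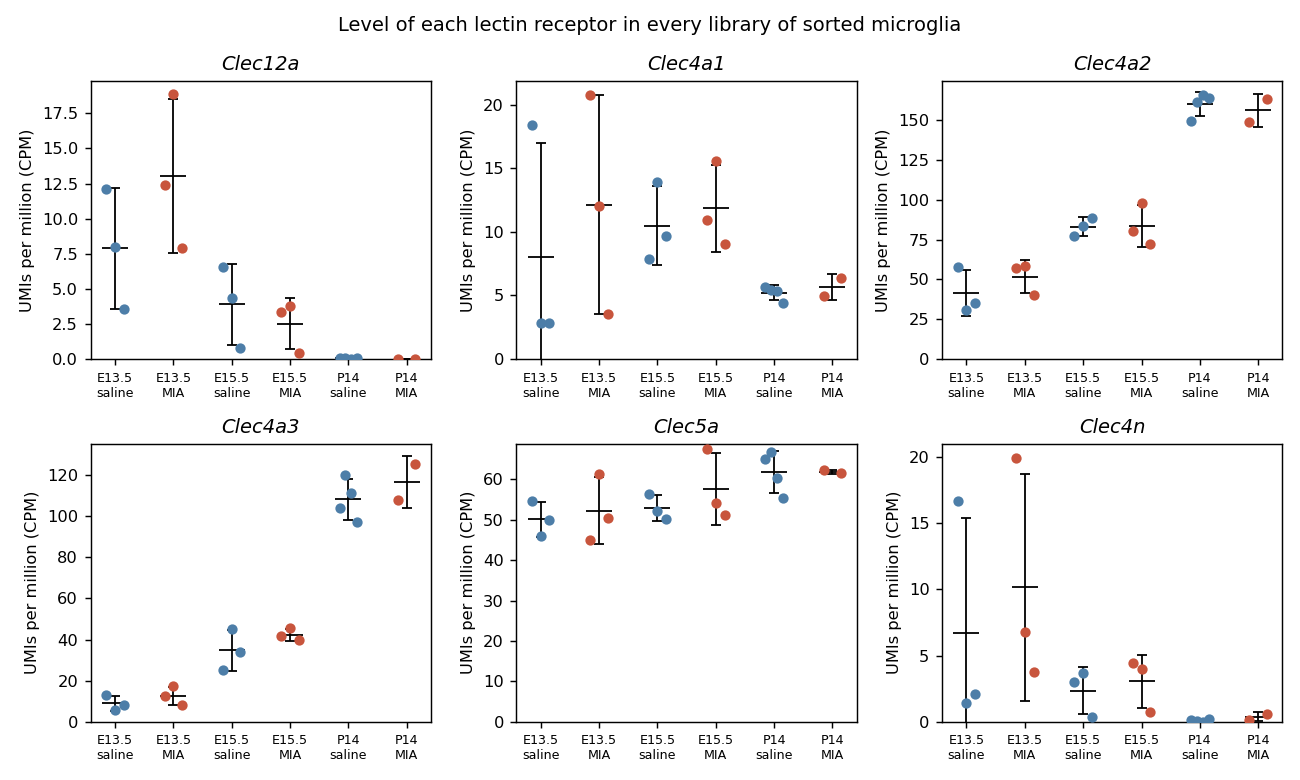
Level of each receptor gene in CPM (y axis) for the 6 groups (x axis). Each point is 1 library, blue for saline and red for MIA, and bars give the mean ± SD of the libraries; Clec4a2 and Clec4a3 climb with stage without overlap between stages, and Clec12a and Clec4n sit near 0 at P14.

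Clec4a2, the inhibitory receptor with the ITIM sequence shown above, was measured at 57.7, 30.9 and 35.2 CPM in the 3 E13.5 saline libraries and at 57.1, 58.3 and 40.2 CPM in the E13.5 MIA libraries. At E15.5 it was measured at 77.1, 83.9 and 88.6 CPM after saline and at 80.6, 97.8 and 72.0 CPM after MIA. At P14 it reached 149, 162, 166 and 164 CPM after saline and 149 and 164 CPM after MIA. Every E15.5 library was above every E13.5 library and below every P14 library. The 6 dendritic cell markers summed to 2.77 to 4.84 CPM at E13.5, 3.13 to 6.49 CPM at E15.5 and 16.6 to 23.4 CPM at P14, where Itgae made up 12.6 to 17.8 CPM, Flt3 was at most 0.557 CPM and Cd209a was at 0 UMIs. The microglial markers also rose in sum from stage to stage without overlap, as given above, so such a rise with stage was not particular to these receptors. The part of either marker list in the rise of Clec4a2 and Clec4a3 was not tested. In saline microglia Clec4a2 rose 2.06-fold from E13.5 to E15.5 (log2 fold change 1.04 ± 0.18 SE, adjusted p = 0.000918), in a comparison in which 23.3% of all genes were called. It rose a further 1.63-fold from E15.5 to P14 (log2 0.70 ± 0.17, adjusted p = 0.00258), with 50.5% of genes called. In MIA microglia the rises were 1.70-fold (adjusted p = 0.00548, 29.0% of genes called) and 1.59-fold (adjusted p = 0.0140, 36.2% of genes called). The second of these was not called without P14 MIA replicate 2, which left 1 library in that group (log2 0.62, adjusted p = 0.0929).

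Clec4a3, the relative closest to Clec4a2 in coding sequence, gave the largest rises. Its levels were 13.1, 5.63 and 8.12 CPM in E13.5 saline and 12.53, 17.2 and 8.02 CPM in E13.5 MIA libraries. They were 25.0, 45.1 and 34.0 CPM in E15.5 saline and 41.8, 45.5 and 39.5 CPM in E15.5 MIA libraries. At P14 they were 104, 120, 111 and 97.1 CPM after saline and 108 and 125 CPM after MIA. The 3 stages did not overlap in any library, as was also so for Clec4a2 and for the sum of the microglial markers. The share of all genes with such a separation was not counted. In saline microglia the rise was 3.99-fold to E15.5 (log2 2.00 ± 0.27, adjusted p = 0.000126) and 2.64-fold from there to P14 (log2 1.40 ± 0.24, adjusted p = 0.000158). In MIA microglia it was 3.71-fold (adjusted p = 0.000151) and 2.34-fold (adjusted p = 0.00229).

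Clec12a, the other member with an ITIM near its start, moved the opposite way. It was measured at 12.1, 7.95 and 3.56 CPM in E13.5 saline and at 12.4, 18.9 and 7.93 CPM in E13.5 MIA libraries. At E15.5 it was measured at 6.53, 4.37 and 0.791 CPM after saline and at 3.33, 3.76 and 0.419 CPM after MIA, so that the 2 embryonic stages overlapped and replicate 3 was lowest in both E15.5 groups. At P14 only 4 UMIs were counted in the 4 saline libraries (1, 2, 0 and 1) and 0 in the 2 MIA libraries. In saline microglia the pooled E15.5 level was 102 times that at P14 (95% interval 39.7 to 376, counting error only), and the fall was called (adjusted p = 5.92e-05). The ratio was 55.6 without E15.5 saline replicate 1, and 7.56 (5.76 to 10.1) when barcodes shared between libraries were kept in each of them, with 57 P14 UMIs in place of 4. In MIA microglia E15.5 was at least 54.4-fold higher than P14, taking 3 counts over the group as the floor for a count of 0, and the fall was called (adjusted p = 0.00133). That bound was 29.98 without P14 MIA replicate 1 and 24.4 without P14 MIA replicate 2. Between E13.5 and E15.5 the fall was called in MIA microglia (log2 fold change −2.17 ± 0.67, adjusted p = 0.0247) and not in saline microglia (−0.93 ± 0.63, adjusted p = 0.301); the difference between the treatments was not called.
The MIA call was lost without E13.5 MIA replicate 2 (adjusted p = 0.0817), without E15.5 MIA replicate 3 (0.0569) and without both small E13.5 MIA libraries (0.246). The saline difference was called with the replicate number as a block (log2 −1.15, adjusted p = 0.0305). This block treats equal numbers as linked across stages, which the labels do not give. Shared barcodes linked replicates 1 of E13.5 and P14, but replicates 2 of E13.5 with replicates 3 of E15.5 and of P14 saline. The blocked call therefore adds no firm support.

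Clec4n, which encodes Dectin-2, varied widely among the embryonic libraries. E13.5 saline replicate 1 held 16.7 CPM and the other two E13.5 saline libraries 1.38 and 2.11 CPM. The E13.5 MIA libraries held 19.9, 6.79 and 3.79 CPM. At E15.5 the levels were 3.04, 3.66 and 0.343 CPM after saline and 4.42, 4.00 and 0.769 CPM after MIA. At P14, 2, 1, 0 and 5 UMIs were counted in the saline libraries and 4 and 18 UMIs in the MIA libraries. The pooled saline level at E15.5 was 28.0 times that at P14 (95% interval 14.04 to 65.3, counting error only), and the fall was called (log2 fold change −4.96 ± 1.25, adjusted p = 0.00342). The ratio was 53.3 without P14 saline replicate 3 male and 7.77 (5.34 to 11.7) with shared barcodes kept. In MIA microglia the ratio was 9.04 (5.88 to 14.6), and the fall just missed the threshold (adjusted p = 0.0551). Without P14 MIA replicate 2, which held 18 of the 22 UMIs, the ratio was 22.3 (8.64 to 82.5), with log2 −4.46 and adjusted p = 0.133. The fall was called without E15.5 MIA replicate 3 (adjusted p = 0.0302), with DESeq2 (0.0304) and once replicate number entered as a block (0.00715). As for Clec12a, that block treats equal numbers as linked across stages, which the labels do not give. The difference between E13.5 and E15.5 was not called in either treatment.

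Clec5a, the receptor that signals through the Tyrobp and Hcst adaptors, stayed between 45.0 and 67.6 CPM in all 18 libraries. Its lowest, median and highest levels were 45.0, 50.2 and 61.3 CPM over the 6 E13.5 libraries, 50.1, 53.1 and 67.6 CPM over the 6 E15.5 libraries and 55.3, 61.9 and 66.9 CPM over the 6 P14 libraries. Every group overlapped the next in the order of their means. The fitted log2 fold changes lay between −0.14 and 0.21 in the 4 stage comparisons, with SE of 0.14 to 0.16 and no call. From E15.5 to P14 their sign turned from −0.02 to 0.23 in saline and from −0.14 to 0.10 in MIA microglia when libraries were scaled by their totals in place of TMM, a scaling that also moved the median of all genes from 0.02 to 0.27 and from 0.0049 to 0.23.

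**Figure D2:**
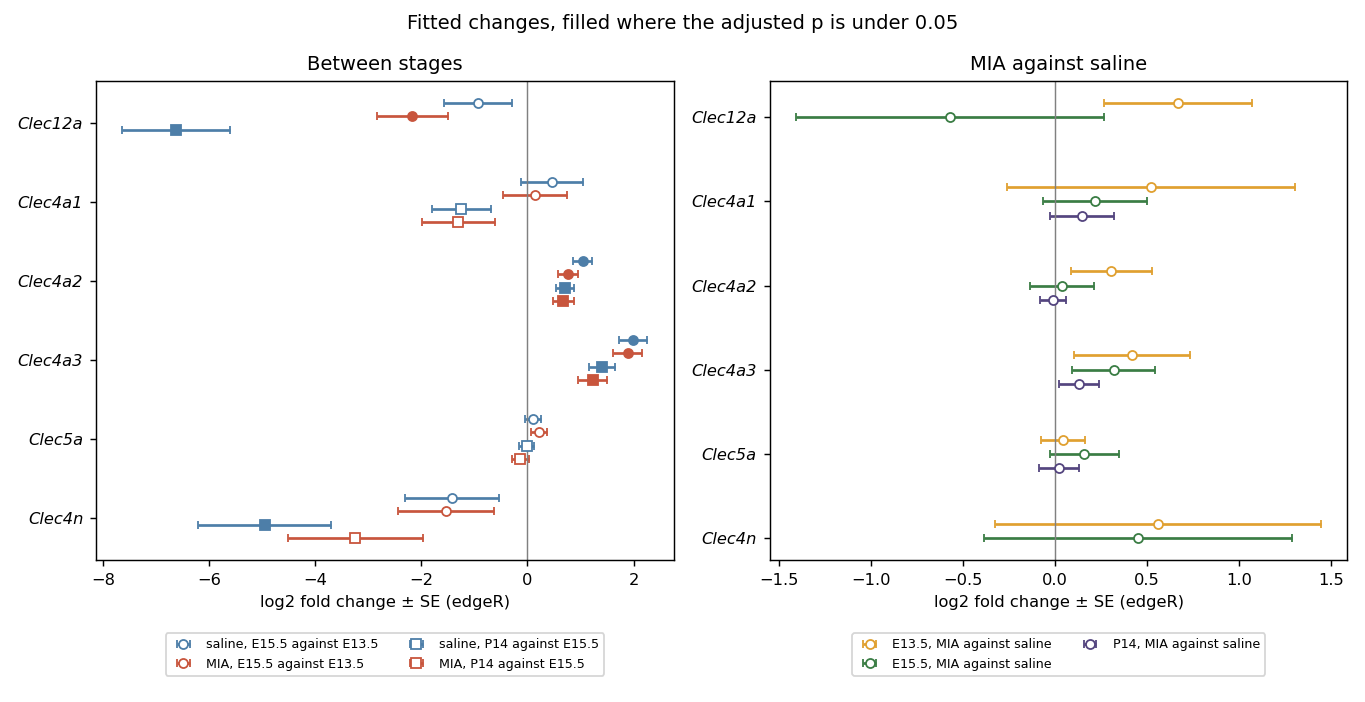
Fitted log2 fold change ± SE (x axis) for each receptor gene between stages (left; circles, E15.5 against E13.5; squares, P14 against E15.5) and for MIA against saline at each stage (right). Symbols are filled where the adjusted p is under 0.05; Clec12a in MIA microglia at P14 against E15.5 has no point because both P14 MIA libraries are at 0, and no symbol on the right is filled.

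Clec4a1, the neighbour of Clec4a3 on the chromosome, showed no called change over all cells. E13.5 saline replicate 1 held 18.4 CPM and the other two E13.5 saline libraries 2.86 and 2.84 CPM, and the E13.5 MIA libraries held 20.8, 12.1 and 3.58 CPM. At E15.5 the levels were 7.85, 13.9 and 9.70 CPM after saline and 10.9, 15.6 and 9.01 CPM after MIA. The P14 libraries lay between 4.37 and 6.38 CPM, below all E15.5 libraries (saline log2 fold change −1.24 ± 0.55, adjusted p = 0.0706; MIA −1.30 ± 0.69, adjusted p = 0.152). The saline fall was called with no filter on low counts (adjusted p = 0.0479). The libraries high in Clec4a1 at E13.5 were also those high in Clec4n.

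The cells were clustered without the 6 receptor genes and the clusters grouped by their leading genes. One cluster of 166 embryonic cells, led by Pf4, Lyve1 and F13a1, is called border macrophage-like from its markers. A second of 1356 cells, led by Ms4a7, Ms4a6c and Cybb, is called Ms4a7-high and given no cell type. Border macrophage markers summed to 17283 CPM in the first and 2130 CPM in the second. Clusters whose median depth was more than 3 times below that of all embryonic or all P14 cells are called shallow. Other classes are called Spp1-high, Hmox1-high and Ifit3-high after one of their leading genes. Of the rest, clusters with at least 1000 CPM of dividing cell markers are called dividing, and the largest group is called the remaining clusters. Shallow embryonic clusters of 2315 and 1649 cells held 1703 and 2272 CPM of those markers, and another of 962 cells held 188 CPM. The dividing class therefore leaves out shallow cells with such markers. Shallow cells made up 29.4% of the cells at E13.5, 7.27% at E15.5 and 3.08% at P14, and held 7.18, 5.50 and 0 CPM of Clec12a. The border macrophage-like and Ms4a7-high classes were set apart by having 2 or more of 9 markers (Mrc1, Pf4, Lyve1, Cd163, F13a1, Ms4a7, Cbr2, Dab2 and Stab1) among their 10 leading genes. At this clustering resolution of 1 no P14 cluster met that criterion, so that only embryonic cells fell into them. The nearest was a P14 cluster of 4259 cells with 1 of the 9, Mrc1, and with Ccr1, among its leading genes and 319 CPM of the markers. At a resolution of 0.5 a P14 cluster of 4082 cells did, with Mrc1 and Pf4. It had 353 CPM of border macrophage markers, 16 Clec4n UMIs (0.711 CPM, 59.3% of those at P14) and 1 Clec12a UMI. What follows on classes is a description with no test.

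Per UMI, Clec12a was highest in the Ms4a7-high class, which held 4.27% of the embryonic cells and 48.6% of their Clec12a UMIs (38.7% at a resolution of 0.5). At E15.5 it held 66.6% of them and dividing cells 19.6%, whereas at E13.5 it held 38.5% and dividing cells, 32.1% of the cells, held 46.6%. These shares follow depth as well as level. Per UMI dividing cells held 7.86 CPM of Clec12a at E13.5 and 4.55 CPM at E15.5. The pooled levels of the remaining clusters were lower, at 1.76 and 0.515 CPM. The whole libraries, which include the dividing cells, held 3.56 to 18.9 and 0.419 to 6.53 CPM. Dividing cells made up 11.2% of the cells at E15.5 and 0.405% at P14, and the 5 dividing cell markers summed to 1136 to 1694 CPM at E13.5, 307 to 1351 CPM at E15.5 and 9.41 to 71.1 CPM at P14. E15.5 saline replicate 1, the E15.5 library highest in Clec12a, had 26.7% of dividing cells against 5.64% to 7.61% in the other E15.5 libraries. The part of dividing cells in the fall of Clec12a was not tested. In the Ms4a7-high class the Clec12a level was 27.1 to 90.8 CPM in the 6 E13.5 libraries and 32.7 to 66.2 CPM in the 5 E15.5 libraries with at least 20 such cells. In the remaining clusters it was 1.01 to 4.76 CPM at E13.5 and 0 to 1.10 CPM at E15.5, and in dividing cells 3.00 to 10.3 CPM and 0 to 9.90 CPM. At a resolution of 0.5 the pooled level of the remaining clusters was 4.20 in place of 1.76 CPM at E13.5 and 0.864 in place of 0.515 CPM at E15.5, and their share of the E13.5 Clec12a UMIs 20.7% in place of 8.86%. The share of Ms4a7-high cells was 1.99% in E15.5 saline replicate 3 and 0.867% in E15.5 MIA replicate 3, the 2 libraries lowest in Clec12a, against 4.57% to 5.67% in the other E15.5 libraries. At E13.5 a Clec12a UMI was found in 29.8% to 55.2% of Ms4a7-high cells per library and in 1.39% to 4.65% of cells of the remaining clusters, with median depths of 21179 to 30138.5 and 19952 to 29799 UMIs per cell. In the removed clusters of other cell types, which should lack the gene, the share was 0% to 4.35% at 2053 to 4739 UMIs per cell. At P14, 1 of 23556 cells of the remaining clusters had one. The 9 monocyte markers summed to 51.3 to 131 CPM at E13.5, 19.9 to 40.5 CPM at E15.5 and 10.9 to 15.2 CPM at P14, and E13.5 MIA replicate 2, the library highest in Clec12a, was also the highest in them. At E13.5 the sum came mostly from Itgal (32.3 to 57.8 CPM), Ccr2 (0.868 to 31.4 CPM), Plac8 (4.30 to 18.7 CPM), Fn1 (1.42 to 16.5 CPM) and Ms4a4c (4.95 to 15.6 CPM). Chil3 was at 0 UMIs throughout and Ly6c2 at 0 from E15.5 on, with 15 UMIs at E13.5. The part of these markers in the Clec12a levels was not tested.

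Clec4a1 and Clec4n were highest in the border macrophage-like class, at 181 and 142 CPM over all embryonic libraries, against 7.41 and 0.822 CPM in the remaining clusters. Clec4n was also present at 20.9 CPM in the Ms4a7-high class and at 17.4 CPM in the Hmox1-high class, whose leading genes Hmox1, Gclm and Srxn1 belong to the response to oxidants. Clec4a1 was present at 40.9 CPM in the Ifit3-high class, led by the interferon-induced genes Cxcl10, Ifit3 and Isg15. In that class it was at 8.62, 29.95 and 31.1 CPM in the 3 E15.5 saline libraries. The 3 E15.5 MIA libraries held 84.7, 63.1 and 56.6 CPM, the last with 18 such cells. These levels rest on 7 to 78 UMIs each and were not tested. At P14 the Ifit3-high class held 10.53 CPM of Clec4a1 against 5.42 CPM in the remaining clusters, with 467 CPM of border macrophage markers and 17 of the 30 P14 Clec4n UMIs. At a resolution of 0.5 it held 8.55 CPM of Clec4a1 against 5.34 CPM, with 303 CPM of those markers and 2 Clec4n UMIs.

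Among the embryonic classes Clec4a2 and Clec4a3 were also highest in the border macrophage-like one, at 236 and 89.8 CPM, and their climb with stage was also seen within the remaining clusters. In the remaining clusters the pooled Clec4a2 level was 37.8, 89.1 and 165 CPM at E13.5, E15.5 and P14, and that of Clec4a3 was 8.51, 41.1 and 113 CPM. Dividing cells showed the same order, with 32.2, 61.6 and 132 CPM of Clec4a2 and 5.00, 14.2 and 33.7 CPM of Clec4a3. Spp1-high cells were lower in Clec4a2, with a median over libraries of 25.5 CPM at E15.5 and 93.8 CPM at P14 against 87.5 and 167 CPM in the remaining clusters. At a resolution of 0.5 the Spp1-high class held 3470 cells at E15.5 in place of 861, and its pooled Clec4a2 level was 76.8 CPM against 84.9 CPM in the remaining clusters, so the E15.5 difference depended on the clustering. That larger class was led by Fos and Egr1 besides Spp1, had 585 CPM of handling-response genes and drew 64.2% of its cells from 1 library, and at a resolution of 1 the cluster led by Fos and Egr1 (2951 cells, 71.5% from 1 library) lay in the remaining clusters. At P14 the pooled levels at that resolution were 95.5 and 163 CPM. Clec5a lay between 37.2 and 55.8 CPM in the embryonic classes and at 4.83 CPM in the clusters of other cell types.

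**Figure D3:**
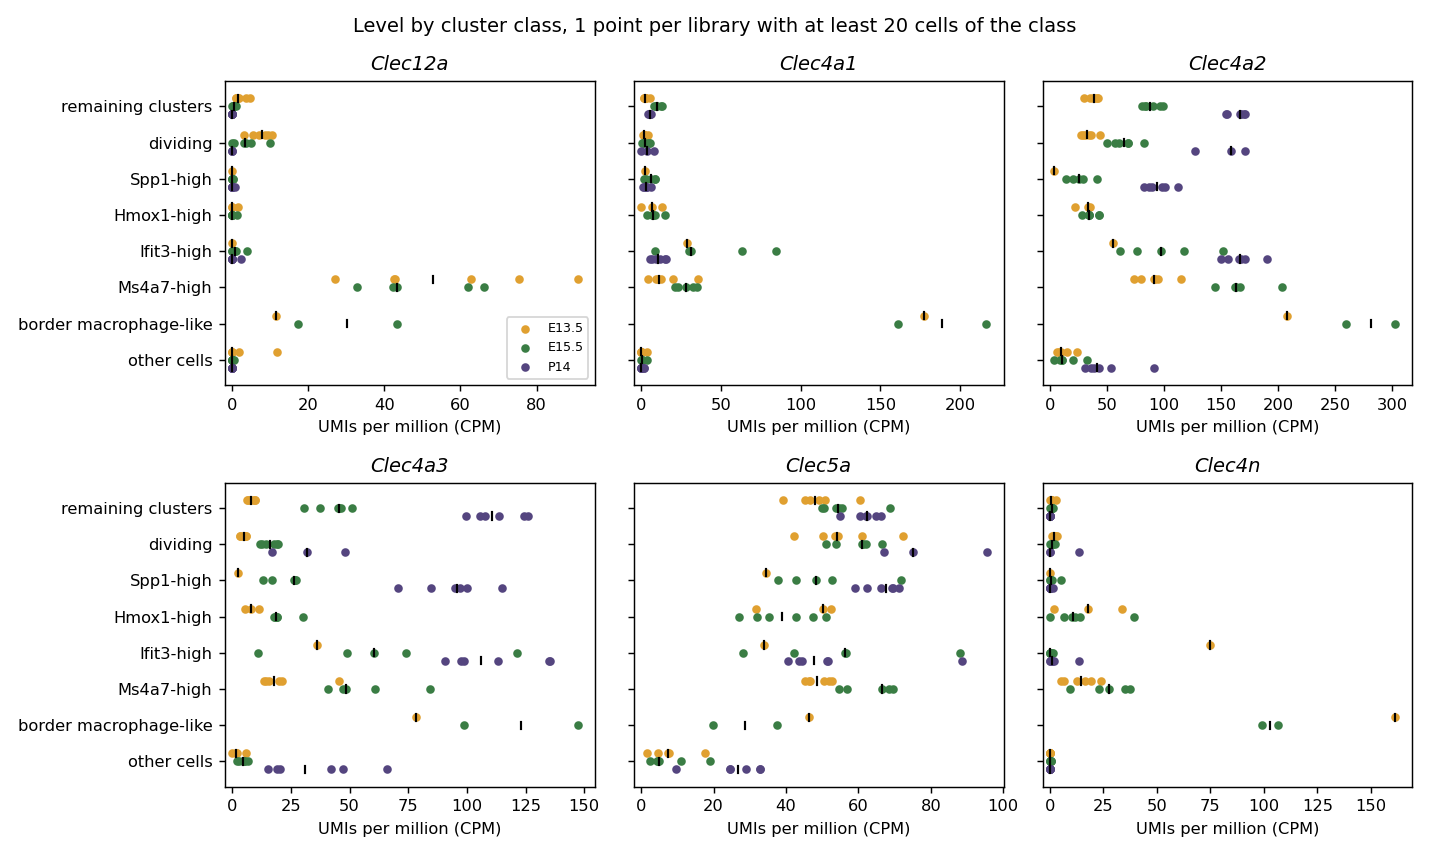
Level in CPM (x axis) of each receptor gene in each class of clusters (y axis), 1 point per library with at least 20 cells of the class, coloured by stage, with a bar at the median. Clec12a is highest in the Ms4a7-high class, Clec4a1 and Clec4n in the border macrophage-like class, and Clec4a2 and Clec4a3 shift to the right with stage within the remaining clusters.

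Sequencing depth per cell fell with stage, so shares of cells were compared after thinning each cell to 2000 UMIs. In the remaining clusters the mean share of cells with a Clec4a2 UMI was 6.83% ± 1.69 (SD, n = 6) at E13.5, 16.6% ± 1.27 at E15.5 and 28.0% ± 1.26 at P14. For Clec4a3 it was 1.60% ± 0.57, 8.23% ± 1.41 and 19.1% ± 1.79. Without thinning the Clec4a2 shares were 42.0%, 51.6% and 55.8% and the Clec4a3 shares 14.4%, 29.3% and 40.7%, in the same order. The Clec5a shares were 8.52%, 10.2% and 11.5% after thinning and 56.9%, 39.7% and 26.8% without it, in opposite orders. In the removed clusters of other cell types the thinned shares were 1.46%, 2.49% and 7.43% for Clec4a2, 0.926%, 0.965% and 6.71% for Clec4a3 and 0.808%, 1.52% and 4.81% for Clec5a. Median depths before thinning were 19952 to 29799, 8636 to 12968 and 3649 to 6875.5 UMIs per cell in the remaining clusters and 1253.5 to 3137 in the removed ones that entered. Thinning left out 25, 61 and 338 cells of the remaining clusters below 2000 UMIs at the 3 stages, and 396, 1493 and 432 of the removed ones.

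Border macrophage-like cells were spread unevenly. They made up 6.88% of E13.5 saline replicate 1 (71 cells) and 5.26% of E13.5 MIA replicate 1 (14 cells), the 2 libraries highest in Clec4a1 and Clec4n, and at most 1.73% of any other embryonic library. The 9 border macrophage markers summed to 477 to 2113 CPM at E13.5, 480 to 925 CPM at E15.5 and 266 to 307 CPM at P14. At P14 the sum came mostly from Stab1 (173 to 197 CPM), Mrc1 (48.3 to 86.8 CPM) and Dab2 (25.4 to 29.2 CPM), while Pf4 reached at most 6.58 CPM and the other 5 at most 2.95 CPM in any library. The stage comparisons were also made with the border macrophage-like and Ms4a7-high cells left out.

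Without these cells Clec4a1 was at 1.68 to 6.42 CPM at E13.5, 6.04 to 12.3 CPM at E15.5 and 4.37 to 6.38 CPM at P14. It rose from E13.5 to E15.5 in saline (log2 fold change 2.21 ± 0.29, adjusted p = 0.00011) and MIA microglia (1.33 ± 0.30, adjusted p = 0.00334). It then fell to P14 in both (saline −1.03 ± 0.25, adjusted p = 0.00252; MIA −1.10 ± 0.31, adjusted p = 0.0108). Leaving out E13.5 saline replicate 1 alone, with every class kept, also gave a called rise in saline microglia (log2 1.90, adjusted p = 0.0153) and turned the Clec4n difference from −1.42 to 0.46, without a call. Without both classes the fall of Clec12a to P14 was smaller and still called, with a pooled ratio of 33.6 (12.9 to 125) in place of 102 in saline (adjusted p = 0.00188) and of at least 17.05 in place of 54.4 in MIA microglia (adjusted p = 0.0132). Clec4n was then called in MIA microglia too, at a smaller size (log2 −2.34 ± 0.84, adjusted p = 0.0379; pooled ratio 4.73 in place of 9.04), and its saline ratio was 10.8 in place of 28.0. The calls of Clec4a2 and Clec4a3 were unchanged.

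**Figure D4:**
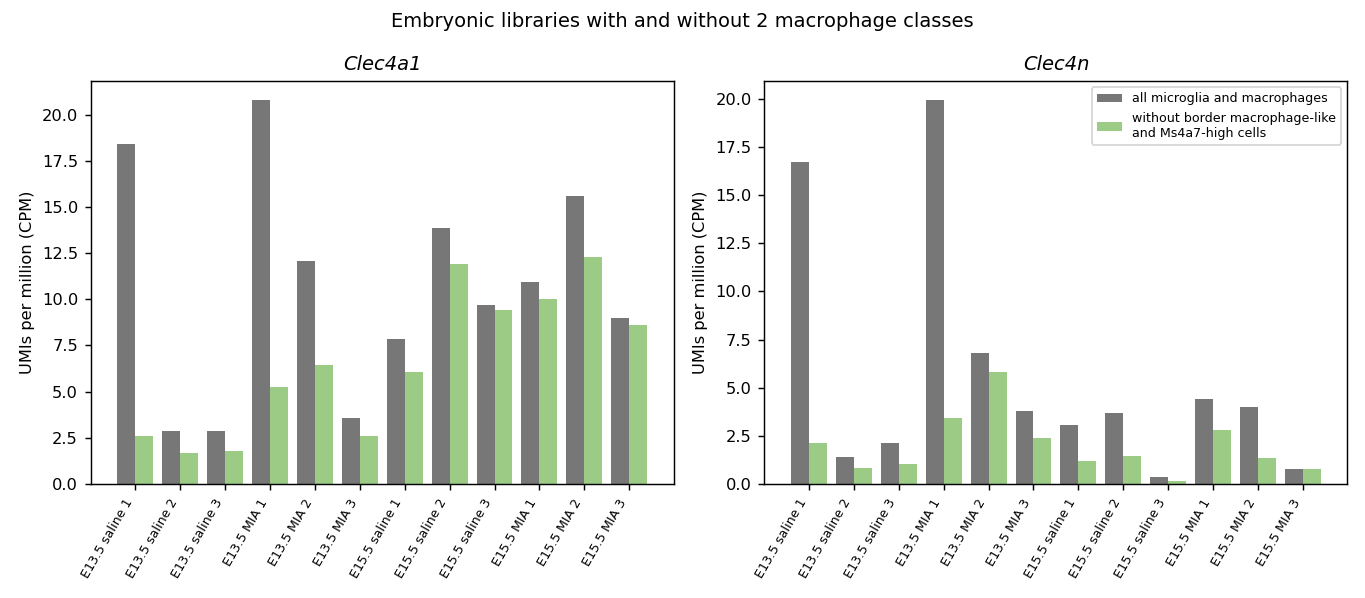
Level in CPM (y axis) of Clec4a1 (left) and Clec4n (right) in each embryonic library (x axis), over all microglia and macrophages (grey) and without the border macrophage-like and Ms4a7-high cells (green). The tall grey bars of E13.5 saline replicate 1 and E13.5 MIA replicate 1 shrink when those cells are left out, and the green Clec4a1 bars of E15.5 stand above nearly all those of E13.5.

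No member was called between MIA and saline at any stage. With edgeR's quasi-likelihood test over the 6 libraries of a stage, 0 of 6 members were called at E13.5, 0 of 6 at E15.5 and 0 of 4 at P14, where Clec12a and Clec4n did not pass the filter on low counts. Of all genes tested 0% was called at each stage (12403, 13130 and 12839 genes), and 126, 71 and 486 genes had an unadjusted p under 0.05. DESeq2 called 2, 4 and 1 genes, none of them a member. The lowest unadjusted p of a member was 0.129 at E13.5, 0.197 at E15.5 and 0.254 at P14.

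At E13.5 the fitted log2 differences between MIA and saline ran from 0.04 ± 0.12 for Clec5a to 0.67 ± 0.40 for Clec12a, with the libraries of both groups overlapping for each gene. At E15.5 they ran from −0.57 ± 0.84 for Clec12a to 0.45 ± 0.84 for Clec4n. In all 3 same-numbered pairs of E15.5 libraries Clec12a was lower, and Clec4n and Clec4a3 higher, after MIA. At E13.5, where the numbers were not taken to pair the libraries, Clec12a, Clec4a1 and Clec4n were higher after MIA in all 3, so that Clec12a pointed the opposite way at the 2 stages. With the replicate number as a block the E15.5 differences were −0.62 ± 0.22 for Clec12a (unadjusted p = 0.0334), 0.51 ± 0.23 for Clec4n (unadjusted p = 0.0754) and 0.35 ± 0.16 for Clec4a3 (unadjusted p = 0.0701), with an adjusted p of 0.949 for each. Blocked differences at E13.5 are given with the alternatives at the end. Those of Clec12a and Clec4n were also higher after MIA there, with low unadjusted p-values and smaller errors than without the block. None was called. At P14 Clec4a2 differed by −0.01 ± 0.07 and Clec4a3 by 0.13 ± 0.11, so their errors were smallest there. With the border macrophage-like and Ms4a7-high cells left out, E13.5 MIA libraries stood at 2.39 to 5.83 CPM of Clec4n against 0.83 to 2.14 CPM in saline (log2 1.47 ± 0.41, unadjusted p = 0.00389, adjusted p = 1.00), and this was not called either. The highest, 5.83 CPM in MIA replicate 2, was 30 UMIs, of which 18 lay in 6 Ifit3-high cells that also held 20 of the 33 Clec4a1 UMIs and 16 of the 50 Clec12a UMIs left in that library. Clec4n at P14 was counted 18 times in MIA replicate 2 and 4 times in MIA replicate 1, against 8 times in the 4 saline libraries together, too few for the filter. The change of the MIA effect between stages was called for no member, with lowest unadjusted p of 0.194 for E15.5 and 0.263 for P14 against E13.5, 0% of 14125 genes called, 106 and 136 genes at an unadjusted p under 0.05, and none called by DESeq2.

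**Figure D5:**
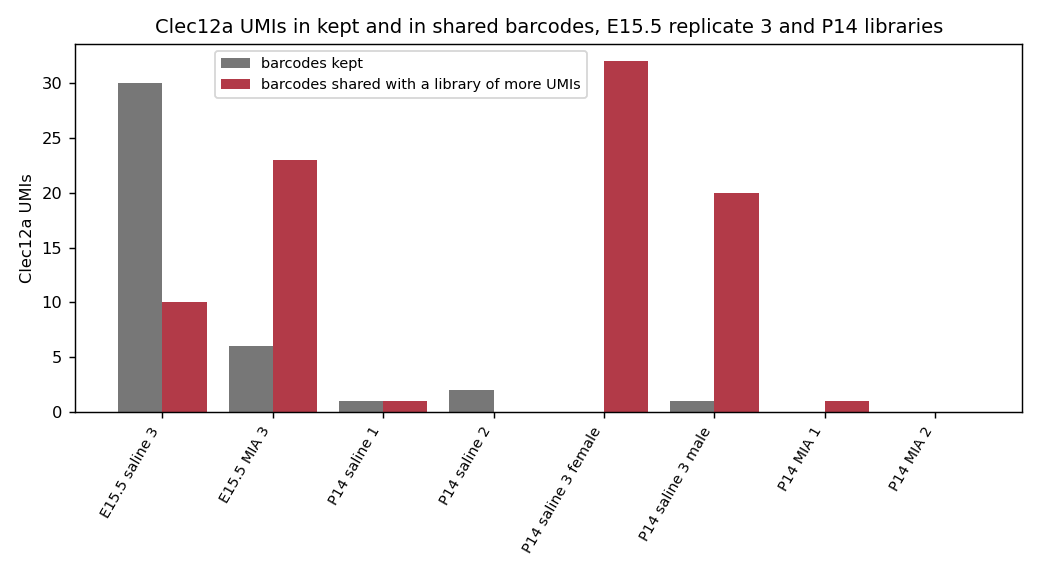
Clec12a UMIs (y axis, a count per library) in barcodes kept and in barcodes shared with a library of more UMIs, for both E15.5 replicate 3 libraries and all P14 libraries (x axis). In P14 saline replicate 3 female 32 UMIs lie in shared barcodes and 0 in kept ones, and in replicate 3 male 20 against 1.

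How low Clec12a was at P14 depended on the treatment of shared barcodes. The 1079 P14 barcodes removed as shared held 54 Clec12a UMIs, and the 28820 kept held 4. With shared barcodes kept in every library the P14 mean was 0.389 CPM in place of 0.0288 CPM, against 3.46 CPM at E15.5. The fall from E15.5 to P14 in saline microglia was then smaller and still called for Clec12a (log2 −3.03 ± 0.69 in place of −6.62 ± 1.01, adjusted p = 0.00168) and for Clec4n (−3.16 in place of −4.96, adjusted p = 0.0158). Clec4n had 26 UMIs in the removed and 33 in the kept P14 barcodes.

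Genes near the members in the genome and in their pathways were read from lists. Of the 9 Dectin-2 cluster genes 5 were tested over stages. Besides the members, Clec4d (MCL, the partner of Dectin-2) fell from 0.501 CPM in E15.5 saline to 1 UMI in 4 P14 saline libraries (adjusted p = 0.000328), and Clec4e was counted once in all libraries. Like Clec4n, Clec4d did not pass the filter on low counts within P14, so its call is no support beyond the counts themselves. Of the 8 genes listed with the Dectin-1 cluster 5 were tested, and Clec7a, which encodes Dectin-1 itself, had no values here. From E15.5 to P14 in saline microglia 4 of the 5 fell and 0 rose, against 26.0% and 24.5% of all genes. Within P14 only 2 of the 8 listed genes passed the filter on low counts. The others entered through the embryonic libraries, so calls of their falls are no support beyond the counts, in saline and MIA microglia alike. The median log2 fold change of the list was −2.43 and that of all genes 0.02. Clec12a was 1 of the 4. Clec2d, the ligand of an inhibitory receptor of natural killer cells, fell from 40.7 ± 9.46 (SD, n = 3) to 12.4 ± 2.52 CPM (n = 4; log2 −1.96). Clec1b (CLEC-2, the podoplanin receptor) fell by 2.43 and Olr1 (LOX-1, a receptor for oxidised lipoprotein) by 2.79 on the log2 scale. Both rest on few counts, 273 UMIs at E15.5 and 40 at P14 for Clec1b and 50 and 5 for Olr1. Clec1a rose from E13.5 to E15.5 in saline (log2 1.80, adjusted p = 0.0476, 10 and 44 UMIs) and MIA microglia (2.09, adjusted p = 0.0298, 13 and 47 UMIs). In MIA microglia 4 fell and 0 rose from E15.5 to P14, against 18.6% and 17.7% of all genes, namely Clec12a, Clec2d (log2 −1.84), Clec1b (−2.76) and Clec1a (−2.21).

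Of the 12 genes listed for activating adaptors and their signalling, 2 rose and 0 fell from E13.5 to E15.5 in saline microglia, against 12.8% and 10.48% of all genes. They were the 2 adaptors of Clec5a, Tyrobp (from 2480 ± 6.50 to 3563 ± 269.5 CPM, log2 0.54, adjusted p = 0.0220) and Hcst (log2 0.44, adjusted p = 0.0378). Both also rose in MIA microglia (log2 0.66 and 0.50), with Bcl10 (0.30), so that 3 rose and 0 fell there, against 14.4% and 14.5% of all genes. From E15.5 to P14 in saline microglia 4 rose and 1 fell, against 24.5% and 26.0% of all genes. Those that rose were the kinase gene Lyn (log2 0.61) and Bcl10 (0.52), the partner of Card9 and Malt1, with Prkcd (0.39) and Vav1 (0.35). The 1 that fell was Fcer1g, the adaptor of Dectin-2 (−0.48 ± 0.17, adjusted p = 0.0266), which is named after its value was seen. In MIA microglia 3 rose and 0 fell, against 17.7% and 18.6% of all genes.

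Of the 3 ITIM phosphatase genes, Inpp5d (SHIP1) rose from E15.5 to P14 in saline (from 192 ± 43.1 to 409 ± 15.8 CPM, log2 0.85, adjusted p = 0.00092) and MIA microglia (log2 0.91, adjusted p = 0.0026), and Ptpn6 and Ptpn11 were not called. Of 9 other inhibitory receptors of myeloid cells, 5 rose and 0 fell from E13.5 to E15.5 in saline microglia, against the 12.8% and 10.48% of all genes given above. Pirb rose most surely (log2 1.56 ± 0.19, adjusted p = 5.3e-05), followed by Cd22 (1.92), Cd300a (0.83), Cd33 and Siglece (both 0.47). From E15.5 to P14, 5 rose and 3 fell, against 24.5% and 26.0% of all genes: Siglece (log2 1.09) and Lair1 (0.64) rose, and Pirb (−1.36) and Lilrb4a (−3.14) fell. Lilrb4a rests on 171 UMIs in E15.5 saline and 16 in P14 saline libraries, and 8 of the 9 listed genes passed the filter within P14. In MIA microglia 5 rose and 0 fell to E15.5, against 14.4% and 14.5% of all genes, and 3 rose and 3 fell from there to P14, against 17.7% and 18.6%. The inhibitory receptor genes therefore did not share one direction after E15.5. The median of the list was 0.37 in saline microglia, beside 0.02 for all genes.

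The genes whose levels followed each member most closely were ranked among 14124 genes by Pearson's r over the 18 libraries, after subtraction of each stage's mean, as a description. The libraries share depth and cell make-up, and no p is given. For Clec12a they were Ccdc181 (r = 0.89), Anxa1, Gm9008, Ms4a6c and Tap2. For Clec4a1 they were Stab1 (0.94), Eps8, Dab2, Spats2l and Ednrb, and Stab1, Dab2 and Ednrb are among the border macrophage markers or leading genes used above. For Clec4n they were Cd36 (0.90), Timd4, Colec12, Wfdc17 and Gm4285. Clec4a2 was followed by Clec4a1 (0.91), Mgl2, Eps8, Usp21 and Spats2l, and Clec4a3 by the interferon-induced genes Ifi209 (0.87), Ifitm3 and Ifi206 and by Fam160b2 and Dpep2. Clec5a was followed by Tceal1 (0.91), Syn1, Lonrf2, Sez6 and Pcdh10, several of which are neuronal genes. E15.5 MIA replicate 1, the library highest in Clec5a, had 26.3% of its cells in the removed clusters of other cell types (5.57% to 14.1% in the other E15.5 libraries), 204 CPM of neuron and progenitor markers in the cells kept (25.2 to 166 CPM) and 683 CPM of 8 handling-response genes such as Fos and Hspa1a (164 to 204 CPM). Without that library the E15.5 difference between MIA and saline in Clec5a was −0.014 in place of 0.16 (log2). The part of these genes in the Clec5a level was not tested. Among the members themselves the closest pairs were Clec4a1 with Clec4a2 (0.91), Clec4a1 with Clec4a3 (0.81) and Clec4a2 with Clec4a3 (0.81), and Clec4a1 with Clec5a was the least alike (0.11).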

How the data were processed

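For each library of sorted microglia the authors deposited a matrix of raw UMI counts, genes by barcodes, made with Cell Ranger (version 3.1.0 per the labels) against mm10, with no normalization. A barcode was kept from 500 detected genes upwards if no more than 20% of its UMIs were mitochondrial. The decision to keep a barcode shared between libraries only where it had most UMIs was taken after seeing the data. Doublets were scored against simulated pairs and the highest-scoring cells removed at 0.8% per 1000 cells. Cells were clustered (Leiden, leidenalg 0.10.2, resolution 1, 2000 variable genes, 30 components) without the 6 members, separately for embryonic and P14 libraries, and clusters of other cell types were removed by markers. Counts were summed per library and tested with edgeR 4.0.16 (TMM, filterByExpr, quasi-likelihood F test, R 4.3.3), tested first on simulated data. MIA against saline was fitted within each stage, and stages and the change of the MIA effect in 1 model of 6 groups. CPM is the UMIs of a gene per 1000000 summed UMIs. Intervals of pooled counts are exact, at 95%, and cover counting error only. Alternatives were DESeq2 1.42.0, library totals in place of TMM, no filter on low counts, other sets of cells, the replicate block and each library left out.

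The members and the gene lists were chosen with earlier results of these data known. Besides the members, the genes named are at most 4 called genes per list and comparison, by adjusted p, and the 5 genes closest to each member. Same-numbered saline and MIA libraries deviated together at E15.5 (correlations over 14125 genes of 0.59, 0.13 and 0.60, and of −0.60 to 0.18 for other pairs, the highest being saline 2 with MIA 3), so the numbers were taken to pair the libraries there, from the data and not from the labels. At E13.5 they were 0.24, 0.03 and 0.34, and −0.32 to 0.06 for other pairs, and at P14 only 2 pairs exist. The numbers were not taken to pair the E13.5 libraries, although 0.24 and 0.34 also lay above the other pairs there. Shared barcodes also linked E13.5 saline with MIA replicate 1 (67 barcodes) and E13.5 saline with MIA replicate 2 (33 barcodes). Results with and without the block are therefore both given for E13.5. The single-nucleus libraries of the study were not used here, except for the number of barcodes of the droplet kit (6794880), from which the sharing that chance allows was computed.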

Additional observations from a re-analysis of the deposited data

Results flagged for a closer look

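Clec12a UMIs appeared in barcodes that were left out, except in the alternatives with shared barcodes kept, because another library held the same barcode with more UMIs. They numbered 10 in E15.5 saline replicate 3, 23 in E15.5 MIA replicate 3, 32 in P14 saline replicate 3 female and 20 in P14 saline replicate 3 male. The kept barcodes of the same libraries held 30, 6, 0 and 1. These 4 libraries share barcodes with E13.5 MIA replicate 2, which held 113 Clec12a UMIs in its kept barcodes. The source of the UMIs in shared barcodes was not tested.

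In P14 saline, 1 of the 4 libraries stood apart in the share of cells with a Clec12a UMI at 2000 UMIs per cell, since its gap to the others was the whole range of the group (a ratio of 1). The share rests on 1 cell and the other 3 libraries were at 0, which fixes the ratio at 1, and the usual rate of chance flags, about 1 in 20 groups, does not apply to it.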

How the results depend on the processing

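The number of members called in each comparison was kept within 1.5 times in 148 of 149 alternatives. The exception was MIA microglia, P14 against E15.5, where 5 members were called without the border macrophage-like and Ms4a7-high cells and 3 with them. Of all genes, 5134 of 14173 were called without those cells and 5120 of 14125 with them. Clec12a and Clec4n, among the 5, passed the filter on low counts through the embryonic libraries. The number of members called is a coarse measure and does not show that single calls were stable. Comparisons of MIA with saline and of the MIA effect between stages stayed at 0 members with each library left out. A change between 3 and 2 members also lies within 1.5 times. Of 604 values for single members, 547 kept their direction and their side of the threshold, 12 gained a call, 4 lost one and 41 turned their sign. None of the 41 was called in the main fit.

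The sign of the MIA difference at E13.5 turned without both small MIA libraries for Clec4a1 (−1.05), Clec4a3 (−0.095) and Clec4n (−0.70, all log2). At E15.5 it turned for Clec4a2 over every cell past the filter (−0.067) and over every barcode (−0.072). At P14 it turned for Clec4a2 in 1 model over the 18 libraries (0.00094), with shared barcodes kept (0.022) and over every barcode (0.019), and for Clec5a with both saline replicate 3 libraries summed (−0.017). From E15.5 to P14 Clec5a turned with library totals (0.23 saline, 0.10 MIA), every cell (0.053 and 0.072), every barcode (0.060 and 0.071) and, in saline, summed replicate 3 libraries (0.030). Clec4a1 turned in MIA microglia from E13.5 to E15.5 over every cell (−0.067) and every barcode (−0.071).

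With each library left out in turn, fitted log2 differences that turned their sign ranged as follows. For MIA against saline at E13.5 they ran from −0.24 to 1.95 for Clec4a1, −0.031 to 0.12 for Clec5a and −0.42 to 2.41 for Clec4n. At E15.5 they ran from −1.06 to 0.068 for Clec12a, −0.025 to 0.45 for Clec4a1, −0.086 to 0.14 for Clec4a2, −0.014 to 0.25 for Clec5a and −0.063 to 0.88 for Clec4n. At P14 they ran from −0.032 to 0.30 for Clec4a1, −0.068 to 0.040 for Clec4a2 and −0.043 to 0.075 for Clec5a. Between stages they ran from −1.91 to 0.46 for Clec4n (saline, E15.5 against E13.5), −0.38 to 0.87 for Clec4a1 (MIA, E15.5 against E13.5), −0.077 to 0.054 for Clec5a in saline and −0.24 to 0.079 for Clec5a in MIA microglia (P14 against E15.5).

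With the replicate number as a block, 0 members were called for MIA at each stage. At E13.5 the block gave 0.83 ± 0.19 for Clec12a (unadjusted p = 0.000428, adjusted p = 0.284) and 0.93 ± 0.24 for Clec4n (unadjusted p = 0.00149, adjusted p = 0.410). The block added calls for Clec12a in saline microglia from E13.5 to E15.5 (−1.15) and for Clec4n in MIA microglia from E15.5 to P14 (−3.47), and took none away. Between stages it treats equal numbers as linked, which neither the labels nor all of the shared barcodes bear out. It turned the sign of Clec5a for MIA at P14 (−0.11) and in saline microglia from E15.5 to P14 (0.0083).

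Library totals in place of TMM moved the genes called higher from 3461 of 7138 to 5253 of 7951 in saline microglia, P14 against E15.5, and from 2497 of 5120 to 3984 of 5963 in MIA microglia. DESeq2 called no member that edgeR did not, except Clec4n in MIA microglia at P14. Clec12a and Clec4n rest on few counts at P14, where a library held at most 18 UMIs of either. At a clustering resolution of 0.5 in place of 1, 5 of the 6 members were again highest, among the embryonic classes, in the Ms4a7-high or the border macrophage-like class, and the pooled embryonic Clec12a level of the remaining clusters was 2.21 in place of 0.951 CPM. The causes of these changes were not tested.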
